A study of Oryza sativa with 8 samples.

Results

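The probes described here are those that were brighter in every array of 3 cytoplasmic male sterile (CMS) rice lines than in the fertile maintainer line Meixiang B (MB). The members were chosen by these intensities: each of the 6 CMS arrays had to be at least 1.5-fold above the MB array of the same replicate number, with intensities below 16 set to 16 before log2 was taken. This held for 121 of 40832 probes (0.296% of all probes), and neither of the 2 probes tied to HSFA4D and bHLH063, which were to be left out, was among them. For comparison, 370 probes (0.906%) lay at least as far below MB on all 6 arrays. Because the differences from MB chose the members, these differences are given as a description, with no test.

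The arrays were Affymetrix GeneAtlas Rice (Cn) Gene 1.1 ST strips, with 2 arrays for each line: ZS97-A/MB (WA-type cytoplasm), D62-A/MB (D type), XQZ-A/MB (DA type) and MB. All CMS lines were alloplasmic, made by repeated backcrossing of a sterile cytoplasm to MB. The study's markers showed that each still held some nuclear genome that is not from MB. By the paper's line names this share was largest in ZS97-A/MB, somewhat smaller in D62-A/MB and smallest in XQZ-A/MB. Plants were grown in the field and sampled at the uninucleate microspore stage, from young panicles by the labels and from anthers by the paper. The paper calls the arrays of a line biological replicates. Lines are named as on the arrays, but the study's table of clustered genes fits the arrays with the XQZ and D62 names exchanged, since 586 of its 620 genes matched 1 probe within 0.005 log2 units that way and 2 matched as labelled. The members are the same under both namings, but every value given for D62-A/MB or XQZ-A/MB would trade its name, and the sign of D62-A/MB minus XQZ-A/MB would turn.

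CMS is inherited through the mother: a rearranged mitochondrial genome prevents functional pollen, while the maintainer carries nearly the same nuclear genome with a normal cytoplasm. Signals from mitochondria to the nucleus can change nuclear transcripts, and the tapetum, the anther layer that feeds the microspores, has a high demand for respiration. Cytoplasm, residual nuclear genome and tissue composition cannot be told apart in this design.

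Replicate 2 arrays were brighter than replicate 1 arrays (median over all probes 19.2 to 20.6 against 7.65 to 8.15), so values are compared within a replicate number. Of the markers of the tapetum that could be tied to a probe (6 of 11), the summed intensity was 244 to 331 in the CMS arrays and 1273 in MB on replicate 1, and 362 to 679 against 3598 on replicate 2. In MB most of it came from OsC6, a lipid transfer protein, and OsC4. GAMYB, a regulator of anther development that is also active in other tissues, did not follow them. On replicate 1 it had 150.2 to 187.6 in the CMS arrays against 168.2 in MB, and on replicate 2 189.2 to 276.4 against 188.2. UDT1, an early tapetum regulator, was at 6.6 or less on all 8 arrays. The sums of stamen and lodicule MADS genes (3 of 5 tied) were below MB of the same number on all 6 CMS arrays, at 530 to 568 against 869 on replicate 1 and 858 to 1023 against 1471 on replicate 2. The same held for the sums of carpel and ovule genes (2 of 3 tied, 25.1 to 38.6 against 46.9 and 55.9 to 72.5 against 100.1) and green tissue genes (3 of 4 tied, 82.8 to 85.7 against 104 and 261 to 291.5 against 344). Of their genes, only DL and RBCS were below MB on all 6 CMS arrays. MADS21, dim on every array, was above MB in XQZ-A/MB (5.1 against 4.0 on replicate 1) and on D62-A/MB replicate 2 (13.5 against 12.8), and below it on the other CMS arrays. CAB1R was above MB on XQZ-A/MB replicate 2 only (151.9 against 134.2). CAB2R was below the floor on all replicate 1 arrays. Lemma and palea MADS genes (4 of 4) were below MB on replicate 1 (504 to 630.1 against 637) and not on replicate 2 (732.0 to 1039.9 against 731.6). The part of tissue composition in the members' differences was not tested, and in bulk tissue fewer cells of a type and less RNA per cell cannot be told apart.

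Of the 121 members, 68 lay in 1 gene of the RefSeq annotation (67 genes), 2 lay in several genes and 51 were not listed in the probe table. The study's annotation could be attached to 44 members through the match of line differences. It gave the same chromosome as RefSeq for 28 of 28 members where both were known. Together, 84 members had a gene or an annotation. Members without either numbered 37, with mean differences from MB of 0.77 to 3.18 (median 1.21) on the log2 scale. For 40 members the only identity was a RefSeq gene number without a described function (0.67 to 1.98, median 1.06). Probes of close relatives in a gene family may pick up each other's transcripts, and this could not be examined without probe sequences.

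The size of the difference from MB varied widely among members. The mean of the 6 differences had a median of 1.25 (2.38-fold) and ranged from 0.67 to 3.18 (1.59-fold to 9.08-fold). It reached 1 (2-fold) in 91 members, while all 6 arrays reached 1 in 20 members and 1.5 in 3 members. All CMS arrays lay above both MB arrays in 116 members, against 3.29% of all probes, which the rule largely fixes. In the other 5 members the brighter MB replicate 2 array reached the level of a CMS replicate 1 array.

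**Figure D1:**
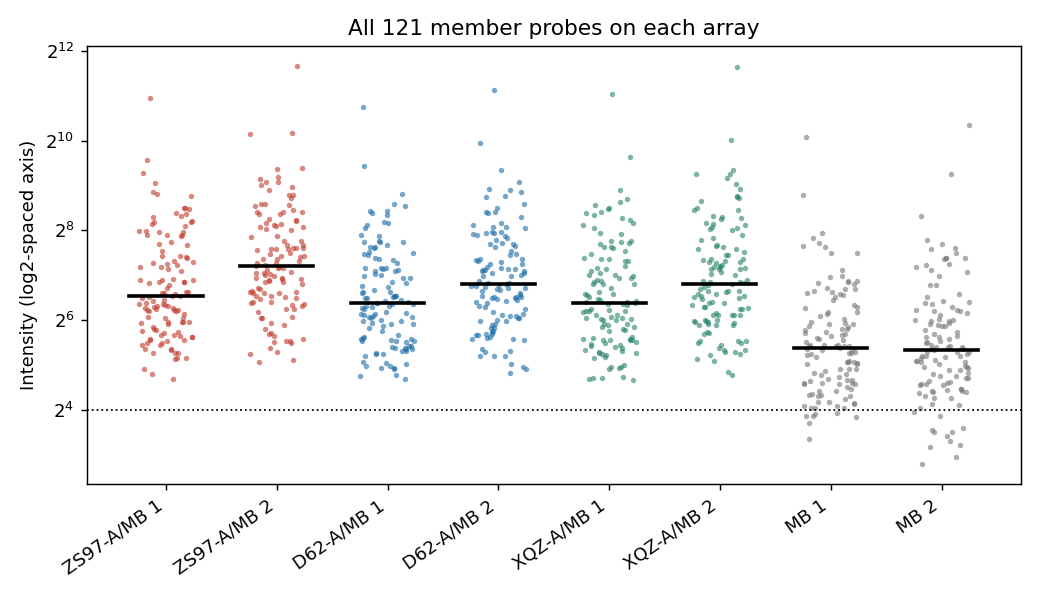
Intensity (linear values on a log2-spaced axis) of all 121 member probes on each of the 8 arrays. Each point is a probe, the black bar is the median and the dotted line is the floor of 16. Medians were 92.2 and 147 on the ZS97-A/MB arrays, 83.6 and 111 on D62-A/MB, 82.8 and 112 on XQZ-A/MB, and 41.2 and 40.1 in MB.

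The median intensity of the members over the CMS arrays was 98.8 (geometric mean per probe), against 40.0 in MB, and the level ranged from 28.4 to 2349 in the CMS arrays. The rule itself keeps every CMS array of a member above the floor. In MB, 105 members were above the floor on both arrays, 13 on 1 array and 3 on neither, and for the last 2 groups the difference is a lower limit set by the floor. With a floor of 32 in place of 16, 84 of the members still met the rule. Among those that did not were GSTU6, TOPBP1C, the SCO1 homolog, prohibitin-2, the VQ protein, OsFBX332, the tRNA pseudouridine synthase, the epimerase, the cysteine-rich protein 55, the SOUL protein, SAUR39 and Os10g0365300, all described below.

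The 2 MB arrays did not rank alike for members and for other probes. In MB, 55 members (45.5%) were dimmer on the replicate 2 array than on the replicate 1 array, against 16% of the 25481 probes above 16 on at least 1 array and 36 of the 370 probes that were lower in every CMS array. In the CMS lines, 1 member was dimmer on replicate 2 in all 3 lines. The median difference from MB was larger on replicate 2 than on replicate 1, with 1.61 against 1.09 in ZS97-A/MB, 1.26 against 0.96 in D62-A/MB, and 1.24 against 0.97 in XQZ-A/MB. The rule favours a low MB array, so no test was made of this.

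**Figure D2:**
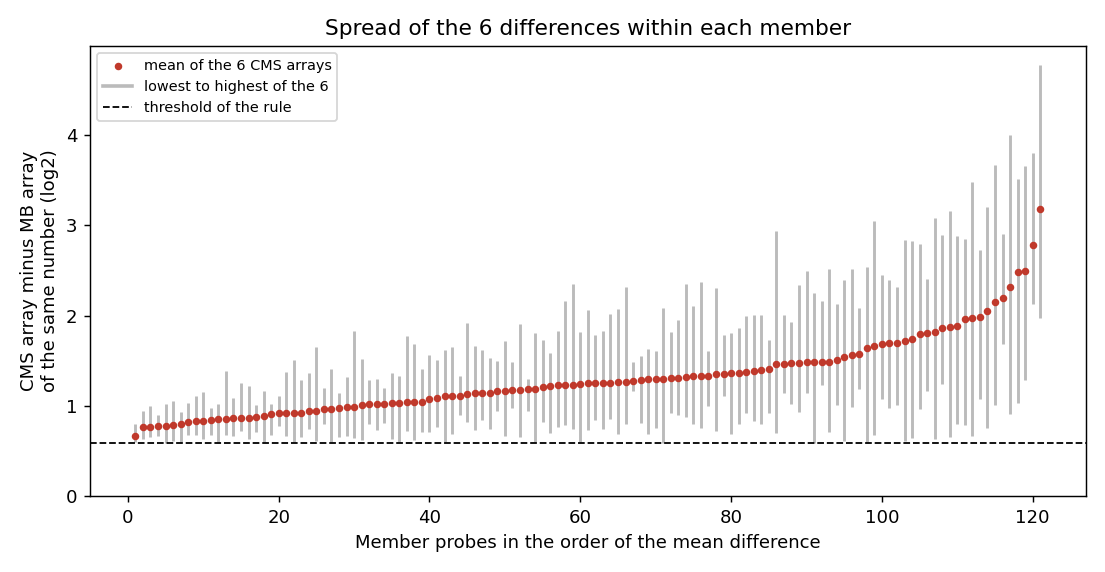
Difference between each CMS array and the MB array of the same replicate number (log2) for each of the 121 members, in the order of their mean. Points are the mean of 6 differences and bars run from the lowest to the highest. The 6 differences spread by a median SD of 0.38, from 0.07 to 1.26.

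The 6 differences share the 2 MB arrays, so a gap between these enters their spread. In all 14 members with an SD over 0.8, MB was dimmer on replicate 2 than on replicate 1, and in the 23 members with an SD under 0.2 this held for 4. The mean difference moved by more than 1.5-fold when either MB array was left out in 14 members, all of them dimmer on MB replicate 2, and the range is given beside each of these that is described. The most even member was a beta-tubulin gene (TUBB7, LOC4334309), a component of microtubules. Its intensity was 317 and 337 on the ZS97-A/MB arrays, 322 and 312 on D62-A/MB and 326 and 308 on XQZ-A/MB, against 209 and 194 in MB. The mean difference was 0.67 ± 0.07 (SD of the 6 arrays, which share 2 MB arrays), the lowest of all members. This gene was named after its values were seen, and it did not meet the rule with quantile normalization.

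The member farthest from MB in its least different array was annotated as GEX1 (Os09g0442400, probe 16553276), whose Arabidopsis relative is a membrane protein of gametes and embryos. Its intensity was 151 and 294 on the ZS97-A/MB arrays, 142 and 176 on D62-A/MB and 143 and 218 on XQZ-A/MB, against 32.5 and 21.2 in MB. The mean difference was 2.78 ± 0.72 (6.88-fold, and 4.46-fold or 10.6-fold with 1 MB array left out), and no CMS array came within 2.13 of its MB array. Second was a probe with no listed gene (16487971), at 433 and 438 on the ZS97-A/MB arrays, 162 and 163 on D62-A/MB and 148 and 164 on XQZ-A/MB, against 37.7 and 11.3 in MB. Both ZS97-A/MB arrays stood above the other CMS arrays here, and its mean difference of 3.18 ± 1.03 (9.08-fold, and 5.8-fold or 14.2-fold with 1 MB array left out) was the highest of all members.

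A gene annotated as transcription elongation factor 1 (Os02g0134300, LOC4328219), a factor that acts on chromatin during transcription, came next. Its intensity was 255 and 474 on the ZS97-A/MB arrays, 195 and 226 on D62-A/MB and 277 and 359.9 on XQZ-A/MB, against 60.8 and 63.5 in MB (mean difference 2.19 ± 0.45). The MB arrays were alike, and each CMS array was more than 3 times as bright as its MB array. The next gene on the chromosome, LOC4328218, was also a member, at 328 and 659.9 on the ZS97-A/MB arrays, 343 and 476 on D62-A/MB and 308 and 483 on XQZ-A/MB, against 200.4 and 205 in MB. It was the seventh brightest member, with a mean difference of 1.04 ± 0.41.

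The remaining members among the 10 with the highest least difference (1.15 to 1.28) had mean differences of 1.27 to 2.49. They were a NAC protein (Os02g0594800), an AP2 protein (Os09g0309700), the replication protein TOPBP1C (Os03g0304400), proteins without a known function (Os10g0365300 and Os04g0142400), LOC4336934 and a probe with no listed gene (16480081, 3.45-fold or 9.13-fold with 1 MB array left out). TOPBP1C, similar to a protein that joins DNA replication to damage signalling, had 50.8 and 55.6 on the ZS97-A/MB arrays, 45.9 and 59.2 on D62-A/MB and 47.0 and 69.2 on XQZ-A/MB, against 20.1 and 24.7 in MB. Its CMS arrays differed little among themselves, and the mean difference was 1.27 ± 0.12. Os10g0365300 had 54.7 and 119 on the ZS97-A/MB arrays, 37.8 and 60.1 on D62-A/MB and 38.2 and 69.1 on XQZ-A/MB, and was below the floor in MB, at 14.6 and 6.87. The value of 6.87 was the lowest of any member on an MB array.

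**Figure D3:**
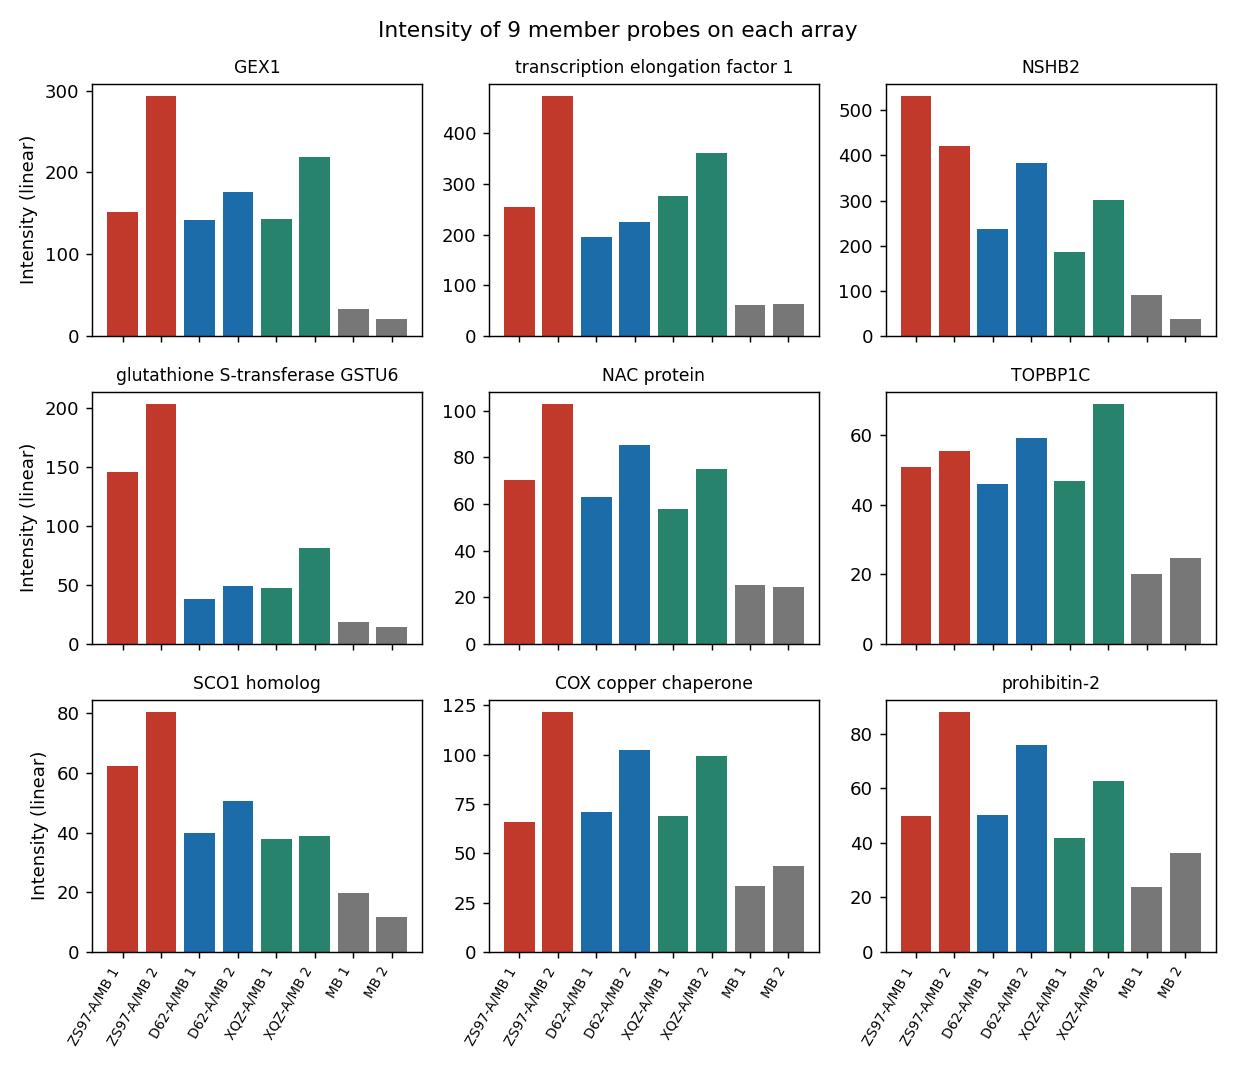
Intensity (linear, from 0) of 9 members on each array, with 1 bar for each array and a colour for each line. In every panel the 6 CMS bars stand above both MB bars, and GSTU6 is highest in both ZS97-A/MB arrays (146 and 204).

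Of 27 detoxification and redox genes in the study's matched list, 3 were members (11.1%), against 44 of 586 genes of that list in all (7.5%). The median difference from MB over the 27 was -0.83, and over the whole list -0.87, so most genes of both were lower in the CMS lines. The group was set by words in the annotation and takes in cytochrome P450 genes. The paper places some P450 genes that were lower in the CMS lines mainly in pollen exine formation, and not in detoxification. The authors chose that list on these arrays, so such shares and medians only describe it. NSHB2, a non-symbiotic hemoglobin that binds oxygen and nitric oxide and the only member with a RefSeq symbol of its own, had 533 and 421 on the ZS97-A/MB arrays, 237 and 383 on D62-A/MB and 187 and 302 on XQZ-A/MB, against 91.2 and 36.8 in MB. All CMS arrays were above both MB arrays, the mean difference was 2.48 ± 1.05 (5.59-fold, and 3.14-fold or 9.93-fold with 1 MB array left out), and MB was dimmer on replicate 2 although that array is the brighter one. The glutathione S-transferase GSTU6 (Os10g0527400), of a family that conjugates toxins and peroxides, had 146 and 204 on the ZS97-A/MB arrays, 38.0 and 48.9 on D62-A/MB and 47.6 and 80.9 on XQZ-A/MB, against 18.9 and 14.4 in MB. Its mean difference was 2.15 ± 1.02, and both ZS97-A/MB arrays exceeded all others. A cytochrome P450 of the CYP72A1 type (Os01g0627800, named after its values were seen) had 115 and 179 on the ZS97-A/MB arrays, 92.4 and 90.5 on D62-A/MB and 54.0 and 61.7 on XQZ-A/MB, against 33.9 and 12.04 in MB. The P450 differed by 1.97 on average, and by 1.29 or 2.64 with 1 MB array left out.

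Mitochondrial proteins made up 3 of the annotated members, of 6 such genes in the matched list (50.0%, against 7.5% of the whole list, median difference 0.89). The 6 are only those found by words in the annotation. The paper lists more putative mitochondrial genes that changed, and it found the mitochondrial import protein TIM17 lower in the CMS lines. The SCO1 homolog (Os02g0159700), an assembly factor that carries copper to cytochrome c oxidase, had 62.3 and 80.6 on the ZS97-A/MB arrays, 39.7 and 50.5 on D62-A/MB and 37.9 and 38.8 on XQZ-A/MB, against 19.9 and 11.7 in MB. Its probe overlaps more than 1 RefSeq gene. A cytochrome c oxidase copper chaperone (Os09g0420700), which acts in the same copper delivery, had 65.7 and 122 on the ZS97-A/MB arrays, 71.0 and 102 on D62-A/MB and 69.0 and 99.4 on XQZ-A/MB, against 33.4 and 43.5 in MB. The mean difference was 1.48 ± 0.52 for the SCO1 homolog and 1.17 ± 0.18 for the chaperone, and the chaperone was nearly level among the CMS lines. Prohibitin-2 (Os03g0841700), a scaffold protein of the inner mitochondrial membrane, had 49.9 and 88.2 on the ZS97-A/MB arrays, 50.4 and 75.9 on D62-A/MB and 41.9 and 62.9 on XQZ-A/MB, against 23.9 and 36.2 in MB, a mean difference of 1.02 ± 0.19. These 3 proteins are encoded in the nucleus and imported into mitochondria.

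Proteins of RNA processing and translation numbered 3 members of 8 such genes in the matched list (37.5%, median difference 0.731). They were a pumilio-family RNA-binding protein (Os12g0488900, mean difference 1.38 ± 0.39), a tRNA pseudouridine synthase (Os12g0194800, 1.33 ± 0.49) and the nonsense-mediated mRNA decay protein NMD3 (Os10g0573900, 1.04 ± 0.27), an export factor of the large ribosomal subunit in yeast. Pumilio proteins bind messenger RNAs and often restrain their translation. The pumilio-family gene had 239 and 337 on the ZS97-A/MB arrays, 278 and 268 on D62-A/MB and 212 and 203 on XQZ-A/MB, against 112 and 84.3 in MB. NMD3 is 1 of the 5 members whose groups overlapped, at 74.7 and 216 on the ZS97-A/MB arrays, 92.7 and 202 on D62-A/MB and 88.3 and 149 on XQZ-A/MB, against 45.8 and 81.4 in MB, and it left the members under quantile normalization.

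Kinases and receptors numbered 5 members of 32 such genes (15.6%, median difference -0.73). The phytosulfokine receptor (Os02g0153900), which perceives a growth-promoting peptide, had 213 and 192 on the ZS97-A/MB arrays, 108 and 138 on D62-A/MB and 128 and 134 on XQZ-A/MB, against 61.7 and 26.2 in MB (mean difference 1.88 ± 0.82, and 1.21 or 2.54 with 1 MB array left out). A serine/threonine kinase (Os03g0125600) and MRH1 (Os12g0105800), named for a root hair kinase of Arabidopsis, were higher by 1.37 ± 0.40 and 1.87 ± 1.08. MRH1 differed by 0.94 or 2.80 with 1 MB array left out, and it too left the members under quantile normalization. SHR5-type receptor-like kinases were represented by Os08g0203100 and, close to it by locus number, Os08g0203300, at 1.32 ± 0.57 and 1.19 ± 0.51. Their annotation is the same, and signal of a close relative cannot be separated here.

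Transcription factors and regulators also numbered 5 members, of 33 such genes (15.2%, median difference -0.285). The NAC protein had 70.4 and 103 on the ZS97-A/MB arrays, 63.0 and 85.2 on D62-A/MB and 57.8 and 75.2 on XQZ-A/MB, against 25.4 and 24.4 in MB, a mean difference of 1.58 ± 0.33. The AP2 protein, of a family with many roles in stress and development, had 118 and 288 on the ZS97-A/MB arrays, 96.7 and 136 on D62-A/MB and 96.0 and 113 on XQZ-A/MB, against 42.4 and 51.1 in MB. Its replicate 2 array of ZS97-A/MB stood apart from the other CMS arrays. A response regulator protein (Os09g0532400), annotated by its receiver domain alone, was among the 10 brightest and very even, at 1.19 ± 0.14. A CCCH-type zinc finger protein (Os01g0572100) was higher by 1.16 ± 0.20. The VQ protein (Os11g0131100), of a family that partners WRKY factors, had 48.9 and 47.7 on the ZS97-A/MB arrays, 30.3 and 53.0 on D62-A/MB and 38.9 and 40.4 on XQZ-A/MB, and was below the floor in MB, at 14.4 and 8.94.

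Defence-type proteins gave 4 members of 41 such genes (9.8%, median difference -1.02). This group was set by words in the annotation and takes in chitinases, glucanases and a glycosyl hydrolase, which need not act in defence. The paper proposes that a glycosyl hydrolase lower in a CMS line might relate to a pollen wall defect. The glycosyl hydrolase Os11g0701500 (LOC4351191) had 238 and 348 on the ZS97-A/MB arrays, 143 and 237 on D62-A/MB and 127 and 192 on XQZ-A/MB, against 43.5 and 91.2 in MB, a mean difference of 1.68 ± 0.48. The cysteine-rich repeat secretory protein 55 (Os08g0136700) had 62.1 and 91.9 on the ZS97-A/MB arrays, 48.2 and 158 on D62-A/MB and 40.2 and 64.1 on XQZ-A/MB, against 25.1 and 19.1 in MB, with D62-A/MB replicate 2 well above the rest. Its mean difference of 1.67 was 0.98 or 2.35 with 1 MB array left out. A harpin-induced protein (Os05g0199100) differed by 0.98 ± 0.24 and left the members under quantile normalization, and a mal d 1-associated protein (Os01g0771200, named after its values were seen) differed by 1.14 ± 0.33.

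Among transporters there was 1 member of 19 genes (5.3%, median difference -0.90), a metal cation transporter (Os07g0232800). It had 78.8 and 133 on the ZS97-A/MB arrays, 98.8 and 174 on D62-A/MB and 119 and 191 on XQZ-A/MB, against 51.7 and 36.5 in MB, and quantile normalization removed it. Its mean difference of 1.54 was 0.92 or 2.17 with 1 MB array left out. The probe of YSL12 (LOC4336442, a name from the RefSeq synonyms for a metal-chelate transporter family, although the study's annotation calls the locus a transposon protein) differed by 1.64 ± 0.81 and was named after its values were seen. It did not meet the rule without a floor and 1 added. The F-box protein OsFBX332 (Os09g0497600), of a family that selects proteins for degradation, was the only member of 17 ubiquitin and protease genes (5.9%, median difference -1.10), at 1.14 ± 0.41. Genes grouped as hormone genes by words in the annotation gave 2 members of 22 (9.1%, median difference -0.90). They were the phytosulfokine receptor and the response regulator already described, and the annotation of the latter does not name a hormone. DNA repair and replication genes gave 1 of 3 (TOPBP1C). Heat shock proteins gave 0 of 3 and disease resistance proteins of the NBS-LRR type 0 of 1. SAUR39 (LOC9271092, named after its values were seen), a repressor of auxin synthesis and transport in rice, had 40.8 and 76.0 on the ZS97-A/MB arrays, 30.1 and 51.2 on D62-A/MB and 47.0 and 69.1 on XQZ-A/MB, against 19.96 and 7.68 in MB. It left the members with quantile normalization and without a floor and 1 added.

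Other annotated members included enzymes of sugars and the cell wall. An alpha-galactosidase (Os10g0493600, LOC4348988), which removes galactose from sugars and wall polymers, had 169 and 273 on the ZS97-A/MB arrays, 212 and 279.5 on D62-A/MB and 284 and 349 on XQZ-A/MB, against 100.2 and 37.9 in MB. Both XQZ-A/MB arrays were the highest, and the mean difference was 2.04 ± 1.06, and 1.11 or 2.98 with 1 MB array left out. An NAD-dependent epimerase (Os07g0212200) had 50.6 and 98.9 on the ZS97-A/MB arrays, 33.2 and 51.8 on D62-A/MB and 26.3 and 45.9 on XQZ-A/MB, against 10.2 and 17.3 in MB. A transferase family gene (Os11g0182200, LOC4349948) was the only gene with 2 member probes, which differed by 1.47 ± 0.34 and 1.28 ± 0.30 and ran in the same order of lines, with XQZ-A/MB highest in both replicate numbers. Of the genes left, gp176 (Os02g0179600) differed by 1.31 ± 0.34 and a SOUL heme-binding protein (Os01g0850900, named after its values were seen) by 1.17 ± 0.51.

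The brightest members in the CMS lines were mostly probes without a described function. The brightest, probe 16459714, which lies in more than 1 RefSeq gene, had 1981 and 3249 on the ZS97-A/MB arrays, 1733 and 2234 on D62-A/MB and 2113 and 3192 on XQZ-A/MB, against 1088 and 1297 in MB. LOC9272001 was second, at 756 and 1145 on the ZS97-A/MB arrays, 693 and 984 on D62-A/MB and 799 and 1030 on XQZ-A/MB, against 438 and 614 in MB. Both were bright in MB as well, and their mean differences were only 0.98 ± 0.27 and 0.77 ± 0.10. Next came an expressed protein (Os12g0114000), at 616 and 1131 on the ZS97-A/MB arrays, 446 and 541 on D62-A/MB and 414 and 578 on XQZ-A/MB, against 246 and 219 in MB. A WD repeat protein (Os01g0185400), of a family that scaffolds protein complexes, followed with a mean difference of 1.24 ± 0.45. The others of the 10 brightest were probes 16514295 (0.91 ± 0.13, not a member under quantile normalization) and 16477315 (1.25 ± 0.42), LOC4332530 (1.40 ± 0.51), and LOC4328218, the response regulator and NSHB2, described above.

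At the threshold, the 3 members with the smallest least difference had 0.5852, 0.5854 and 0.5866, and the 3 nearest probes outside had 0.5839, 0.5836 and 0.5799. Just inside, LOC4342857 had 40.1 and 51.3 on the ZS97-A/MB arrays, 39.6 and 47.3 on D62-A/MB and 35.4 and 60.7 on XQZ-A/MB, against 19.7 and 31.5 in MB. Just outside, LOC4334908 had 84.8 and 90.9 on the ZS97-A/MB arrays, 94.2 and 82.8 on D62-A/MB and 91.1 and 72.4 on XQZ-A/MB, against 56.6 and 40.7 in MB. Nothing but the position of the threshold separates such probes.

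The 68 members in 1 RefSeq gene lay on all 12 chromosomes. Chromosome 3 held 15 of them (22.06%, against 14.03% of all probes in 1 gene), chromosomes 11 and 12 held 6 each (8.8% against 4.8%), chromosome 1 held 5 (7.4% against 14.8%) and chromosome 6 held 1 (1.5% against 8.2%). The probes lower in every CMS array had 16.7% on chromosome 3, 2.1% on chromosome 11 and 10.3% on chromosome 6. These shares were not tested. In the RefSeq order of the japonica assembly ASM3414082v1, LOC4328218 and LOC4328219 on chromosome 2 were direct neighbours, and LOC4331517 and LOC4331520 on chromosome 3 had 3 genes between them. No other pair of the 67 RefSeq genes lay within 10 genes of each other. By the locus numbers of the study, known for 44 members, the SHR5-type kinases on chromosome 8, which have no single RefSeq gene, are also direct neighbours. LOC4331517 had 91.1 and 100.6 on the ZS97-A/MB arrays, 123 and 90.1 on D62-A/MB and 63.98 and 59.5 on XQZ-A/MB, against 40.0 and 39.2 in MB, and LOC4331520 differed from MB by 1.03 ± 0.33 and left the members under quantile normalization.

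**Figure D4:**
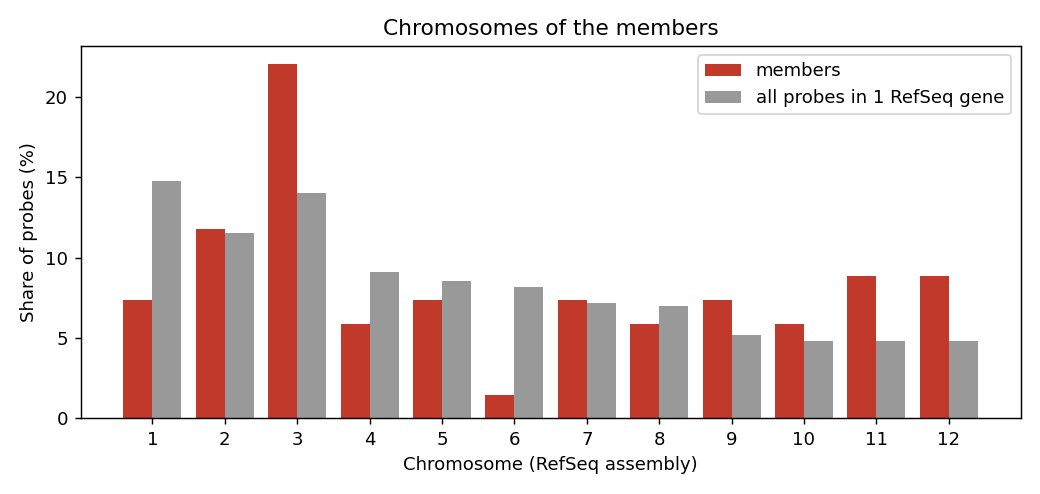
Share of probes (%) on each chromosome for the 68 members in 1 RefSeq gene (left bars) and for all probes in 1 RefSeq gene (right bars). Chromosome 3 held 22.06% of the members and 14.03% of all such probes.

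The rule sets no condition among the CMS lines, but it used the same 6 CMS arrays, so differences among these lines are not independent of the choice of members. They were fitted with limma over the 20416 brighter probes, in a model that also held the replicate number, and the members' values are read from that fit as a description. All 121 members were among the probes fitted. With an adjusted p under 0.01 and at least 2-fold, limma called 0 members and 0% of all probes when ZS97-A/MB was set against D62-A/MB and XQZ-A/MB together. At an unadjusted p under 0.05, 35 members were higher in ZS97-A/MB (15.5% of all probes were) and 3 were lower (6.08%). At an adjusted p under 0.05, limma called 9 members higher (7.44% of the members, against 2.91% of all probes) and 0 lower (0.309%). The members' differences had a median of 0.23 and all fitted probes a median of -0.01, with 76.9% of the members and 48.8% of all probes above 0. ZS97-A/MB was the highest CMS line in both replicate numbers for 49 members (40.5%, against 24.1% of all fitted probes), XQZ-A/MB for 13 (10.7%, against 22.4%) and D62-A/MB for 4 (3.31%, against 10.8%). A probe that is high in ZS97-A/MB passes the rule more easily there, and nothing particular to the members is read from these shares.

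**Figure D5:**
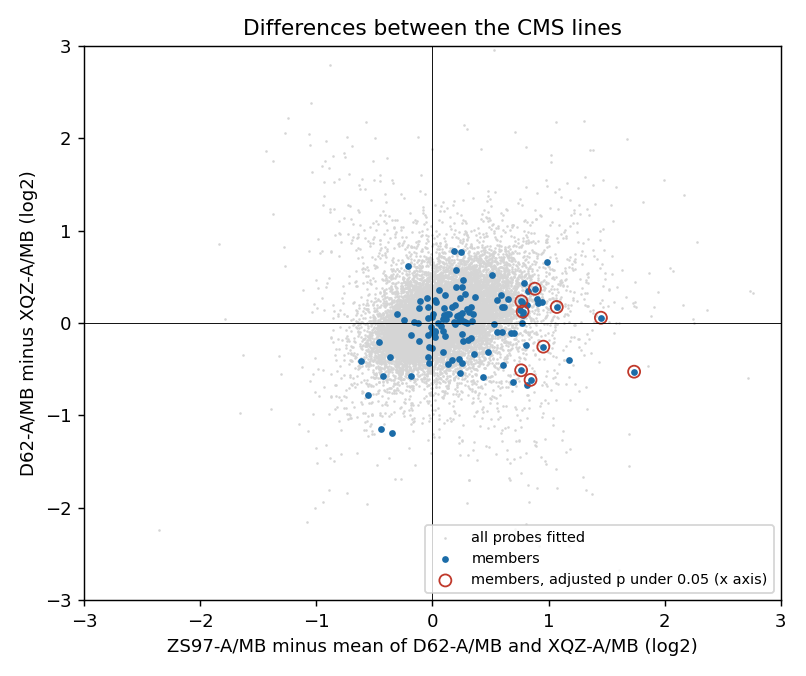
Difference of ZS97-A/MB from the mean of D62-A/MB and XQZ-A/MB (x axis, log2) and of D62-A/MB from XQZ-A/MB (y axis, log2), for the 20416 fitted probes (grey) and the 121 members (blue). Red circles mark the 9 members with an adjusted p under 0.05 on the x axis, all of them right of 0.

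The 9 members higher in ZS97-A/MB were led by GSTU6, which was 1.74 ± 0.20 log2 units (SE) above the mean of D62-A/MB and XQZ-A/MB (limma, adjusted p = 0.020). Probe 16487971 followed at 1.45 ± 0.28 (adjusted p = 0.046) and LOC4326511 at 1.07 ± 0.18 (adjusted p = 0.035), with 52.3 and 134 in ZS97-A/MB, against 31.5 and 56.8 in D62-A/MB and 30.3 and 46.4 in XQZ-A/MB. The kinase Os08g0203100 had 135 and 147 in ZS97-A/MB, against 48.9 and 90.9 in D62-A/MB and 66.2 and 95.6 in XQZ-A/MB, a difference of 0.95 ± 0.18 (limma, adjusted p = 0.044). LOC4331363 had 448 and 496 in ZS97-A/MB, against 183 and 245 in D62-A/MB and 300.4 and 351 in XQZ-A/MB (0.84 ± 0.15, limma, adjusted p = 0.038). The other 4 were probe 16556944 (0.88 ± 0.15), LOC4328170 (0.78 ± 0.14), the glycosyl hydrolase LOC4351191 (0.77 ± 0.14) and LOC4345852 (0.76 ± 0.12), and their adjusted p ran from 0.031 to 0.040 in limma. In all 9 members both ZS97-A/MB arrays were above the other CMS arrays of the same number, which the contrast that picked them favours. With quantile normalization GSTU6 had an adjusted p of 0.047 in limma and the other 8 had 0.075 to 0.108. LOC4345852 was then no longer a member. The count of members at this level was 0 without a replicate term (0% of all probes) and when either ZS97-A/MB array or either XQZ-A/MB array was left out (0% to 0.0049%). It was 4 without D62-A/MB replicate 1 (1.74% of all probes were higher) and 3 without D62-A/MB replicate 2 (1.38%). Without either MB array, 16 members were higher (13.2%, against 4% of all probes) and 1 was lower.

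Between D62-A/MB and XQZ-A/MB, limma called 0 members and 0% of all probes at an adjusted p under 0.01 and 2-fold. At an adjusted p under 0.05 it called 0 members (0.0294% of all probes were higher and 0.0245% lower in D62-A/MB). At an unadjusted p under 0.05, 4 members were higher in D62-A/MB (9.28% of all probes) and 9 lower (4.36%). The members' median difference was 0.03, and 110 of the 121 lay within a 1.5-fold difference, which does not show that the lines were equal. The largest differences were in LOC9266317, not a member under quantile normalization, with 204 and 219 in D62-A/MB, against 377 and 613 in XQZ-A/MB (-1.19 ± 0.17 SE, limma, adjusted p = 0.066), and in LOC4333342, with 47.6 and 36.8 in D62-A/MB, against 90.5 and 95.4 in XQZ-A/MB (-1.15 ± 0.16, limma, adjusted p = 0.058). In both genes the XQZ-A/MB arrays did not overlap with the D62-A/MB arrays, and the MB arrays were the dimmest, at 98.8 and 145 for LOC9266317 and 27.1 and 21.3 for LOC4333342.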

How the data were processed

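Total RNA of 3 CMS lines and MB was hybridized to 8 arrays. The deposited values are linear signal intensities made by the authors. MAS5 is named by the labels and Robust Multichip Analysis by the paper, and the version, the probe build and the strand are not given in the sources used here. A second deposited table was equal for all shared probes (largest difference 0) and held 98 control probe sets more. No column of the authors' own comparisons was used from these tables.

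Intensities below 16 were set to 16 and log2 was taken. The members and all gene lists were chosen with earlier results of these data known. Probes were tied to genes by a probe table and RefSeq (ASM3414082v1), which give names without products. The study's annotation was attached by matching its gene table to probes on the line differences within 0.005 log2 units. Of 401 matched genes with a RefSeq gene, 400 lay on the same chromosome, and on all 12 chromosomes the locus numbers and RefSeq positions had the same order. Gene groups were set by words in that annotation. Named members are those with a RefSeq symbol, those annotated with a function in 2 clusters or in a short list of the study, the 10 with the highest least difference, the 10 brightest, the first 5 called between CMS lines per direction, and those at the threshold. Most genes outside this rule are stated as named after their values were seen. The same holds for LOC4331517, LOC4331520, Os08g0203300, LOC9266317 and LOC4333342, and for members listed beyond the first 5 called.

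Differences among the CMS lines were fitted with limma 3.58.1 in R 4.3.3 over the 20416 probes of higher mean intensity (lowest mean 14.9), with a coefficient per line, the replicate number as a term and Benjamini-Hochberg adjustment. The fit had 3 residual and 3.96 prior degrees of freedom. The numbers pair the arrays: deviations of replicate 2 from replicate 1 correlated between every 2 of the 4 lines (0.728 to 0.839). The fit was also run on simulated data with independent noise, scored at an adjusted p under 0.01 and 2-fold. That run does not show how reliable the calls at an adjusted p under 0.05 are. The paper calls the arrays biological replicates, and no source used here says that they come from separate plants, so p-values measure the spread between these arrays. Tables were made with pandas 2.3.3 and numpy 2.4.6, figures with matplotlib 3.10.9, in Python 3.11.15. Alternatives were quantile normalization, other floors, no floor with 1 added, a threshold of 1, no replicate pairing, no filter, only the CMS arrays, the methods' t test, and each array left out.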

Additional observations from a re-analysis of the deposited data

Results flagged for a closer look

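The 9 members below differed between ZS97-A/MB and the mean of the other CMS lines at an adjusted p under 0.05 in limma (7.44% of the members, against 2.91% of all probes). The members were chosen with the same CMS arrays, so these differences are not independent of that choice. None of them reached an adjusted p of 0.01. The differences (log2, ZS97-A/MB minus the others) were 1.74 for the glutathione S-transferase GSTU6, 1.45 for probe 16487971, 1.07 for LOC4326511, 0.95 for the SHR5-type kinase Os08g0203100, 0.88 for probe 16556944, 0.84 for LOC4331363, 0.78 for LOC4328170, 0.77 for the glycosyl hydrolase LOC4351191 and 0.76 for LOC4345852. The difference was above 0 in both replicate numbers for all 9, at 1.78 and 1.70 for GSTU6 and at 1.48 and 1.42 for probe 16487971. The 9 were picked by this contrast on the same arrays, which nearly fixes that sign, so it is no separate support.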

How the results depend on the processing

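The count of 121 members was 115 with quantile normalization (97 of the 121 kept), 140 with a floor of 8 (121 kept), 84 with a floor of 32 (84 kept) and 140 without a floor and 1 added (116 kept). It fell to 20 at a threshold of 1 log2 unit. Without the replicate pairing it fell to 68, when each CMS array had to be at least 1.5-fold above the higher MB array. Rules that ask for fewer arrays can only add members: the pairs of replicate 1 alone gave 221 and those of replicate 2 alone 904, and leaving out each array in turn gave 123 to 904, with 191 once XQZ-A/MB replicate 1 was left out, 221 for MB replicate 2 and 904 for MB replicate 1. Each of these keeps all 121 members by its construction.

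For both differences among the CMS lines, 0 members were called at the threshold of 0.01 and 2-fold in these alternatives: no replicate block, no filter, quantile normalization, no floor, only the CMS arrays and the methods' t test. Of all fitted probes, 0 were called in these settings too, apart from the fit without a floor. That fit called 8 probes for ZS97-A/MB and 1 for the difference of D62-A/MB from XQZ-A/MB. In these settings hardly any probe reached this threshold, so their zeros say nothing particular about the members. Fits that leave out a CMS array keep 1 array of a line and are not counted here. At an adjusted p under 0.05 and no fold threshold, 9 members were called for ZS97-A/MB, all higher (2.91% of all probes were). At that level 10 were higher without a floor (3.15% of all probes), 16 higher and 1 lower with only the CMS arrays (4% and 0.642%), which leaving out either MB array equals by construction, and 1 higher with quantile normalization (0.367%). The count was 0 without the replicate block (0% of all probes), without the filter (0.00245%), by the methods' t test (0.0098%) and without either ZS97-A/MB or XQZ-A/MB array (0% to 0.0049%), and 4 and 3 without D62-A/MB replicate 1 and 2 (1.74% and 1.38%). Without D62-A/MB replicate 1, 2 members (1.65%) were lower in D62-A/MB than in XQZ-A/MB at that level, as were 0.475% of all probes. The causes were not tested.

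The mean difference from MB of 42 named members was above 0 in all 84 values computed under quantile normalization and without a floor, and 1 moved by more than the SD of the 6 arrays (the VQ protein, 1.81 without a floor against 1.41). The rule fixes this direction without a floor and when arrays are left out. The values under quantile normalization come from the same arrays that chose the members, so they are no independent support. Leaving out 1 MB array moved 9 of these 42 by more than 1.5-fold, and over all 121 members the mean then ran from 0.62 to 3.83. Precision is limited by having 2 arrays of a line, and dim MB values near the floor set only a lower limit.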
